A study of Mus musculus with 6 samples.

Results

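The genes described here were chosen by name and measured in the hand plate of the mouse embryo. They encode voltage-gated ion channels, other potassium channels, chloride channels and exchangers, transient receptor potential (TRP) channels, and subunits that assemble with these. A gene belonged to the set if one of its array probes carried a name beginning with Kcn, Scn, Cacna, Cacnb, Cacng, Clcn, Trpc, Trpm or Trpv in the standard pattern of those families, leaving out the antisense RNA Kcnq1ot1. This gave 165 genes with 241 probes, of 21245 genes and 55681 probes on the array. For 74 of them, all 3 arrays of a group measured a probe well above background, and 73 were tested, because the Trpm5 probe had an outlier spot. The pattern also takes in Trpc4ap and Kcnrg, whose products are a channel-associated protein and a regulator rather than channels, and Trpc2, which is listed as Xntrpc in the reference.

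Mesenchymal cells of forelimb autopods at stage E11.5 had been separated by flow cytometry into those positive and those negative for Sox9-EGFP. All embryos were C57BL/6 mice with EGFP knocked into Sox9, so both groups carry the reporter allele and differ in the EGFP signal by which they were sorted. Each group had 3 samples, each from about 10 autopods, and was measured on 1 Agilent array with 1 dye. The sources used here do not say whether the samples came from separate litters or sorts, so p-values measure the spread between these samples only.

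Voltage-gated channels open when the membrane potential changes and let potassium, sodium, calcium or chloride cross the membrane. Potassium channels carry outward current and hold the potential negative, while voltage-gated calcium channels couple a change in potential to calcium entry. TRP channels are cation channels opened by heat, osmotic swelling, stretch, lipids or internal calcium. In limb development, inherited channel disorders are known to affect the digits and the skeleton. Gain-of-function mutations of CACNA1C in people cause Timothy syndrome with fused digits, and mutations of KCNJ2 and TRPV4 cause digit anomalies and skeletal dysplasia.

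Values are log2 signals relative to the 75th percentile of each array, and a difference is the mean of the positive arrays minus the mean of the negative arrays. A gene was called if its adjusted p in limma, taken over all 13197 genes tested, was under 0.05. Sox9 itself gave 3.52, 2.99 and 3.60 on the positive arrays, against −1.13 to −0.88 on the negative arrays, a difference of 4.37 ± 0.19 (SE, n = 3 per group; limma adjusted p = 0.000146). The array of positive replicate 1 was dim, with a 75th percentile of 126 intensity units where the other 5 arrays ran from 385 to 478. Its lowest signal well above background was −2.73, and on the other arrays that limit lay between −4.77 and −4.53. The limit on precision is the number of arrays, and an exact permutation test of 3 against 3 cannot go below p = 0.1. In bulk samples such as these, fewer cells expressing a gene and less RNA per cell cannot be told apart.

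Of the 73 channel genes tested, 8 were higher in Sox9-EGFP positive cells and 7 were lower. Among the higher genes were Cacna1h, Kcnd3, Kcnh2, Trpm4, Trpm6, Kcnmb4 and Trpv4. The lower genes were Kcng1, Scn11a, Cacna2d3, Cacna1c, Kcnip3, Cacna2d1 and Clcn4. Together these are 20.5% of the channel genes tested, beside 35.0% of all genes tested. The share that was higher, 11%, was near the 10.6% of all genes, and the share that was lower was 9.59%, beside 24.4% of all genes. With a difference of at least 2-fold as well, 7 channel genes were higher (9.59%, beside 5.32% of all genes) and 3 were lower (4.11%, beside 5.70%). All 8 higher genes were well above background on all 6 arrays, and so were 4 of the 7 lower ones. Kcng1, Cacna2d3 and Cacna1c passed the background filter through the negative arrays only, where they were higher.

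The 3 positive arrays all lay on one side of the 3 negative arrays in 23 channel genes (31.5%, beside 51.3% of all genes), above them in 13 and below them in 10. Most channel probes gave low signals. Their median level of −2.14 stood at the 15.3rd percentile of all tested genes, and 48 of the 73 fell among the lowest 25% of levels. Within these, a split chosen after seeing the data, 16.7% of the channel genes and 29.6% of all genes were called. A probe's signal also depends on its sequence, so no channel's level is set against another's.

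How the array scaling was set moved the balance of higher and lower calls. The median difference over all genes was −0.18 under the 75th percentile, and the median over channel genes was 0.09. Taking the percentile over probes above background on all 6 arrays shifted every gene up by 0.27 and gave 14 channel genes higher and 1 lower, and over all genes the share of calls that were lower was 39.0% instead of 69.7%. With each array centred on its median over tested genes there were 12 higher and 4 lower, and a share of 54.7% over all genes. Quantile normalization gave 8 and 7, normexp with quantile normalization 7 and 7, and the authors' own values 7 and 6. The shares over all genes there were 53.7%, 53.7% and 55.4%, and under these 3 the channel genes' median lay at −0.07, −0.01 and −0.01. Without the dim array of positive replicate 1 the counts were 14 higher and 11 lower.

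**Figure D1:**
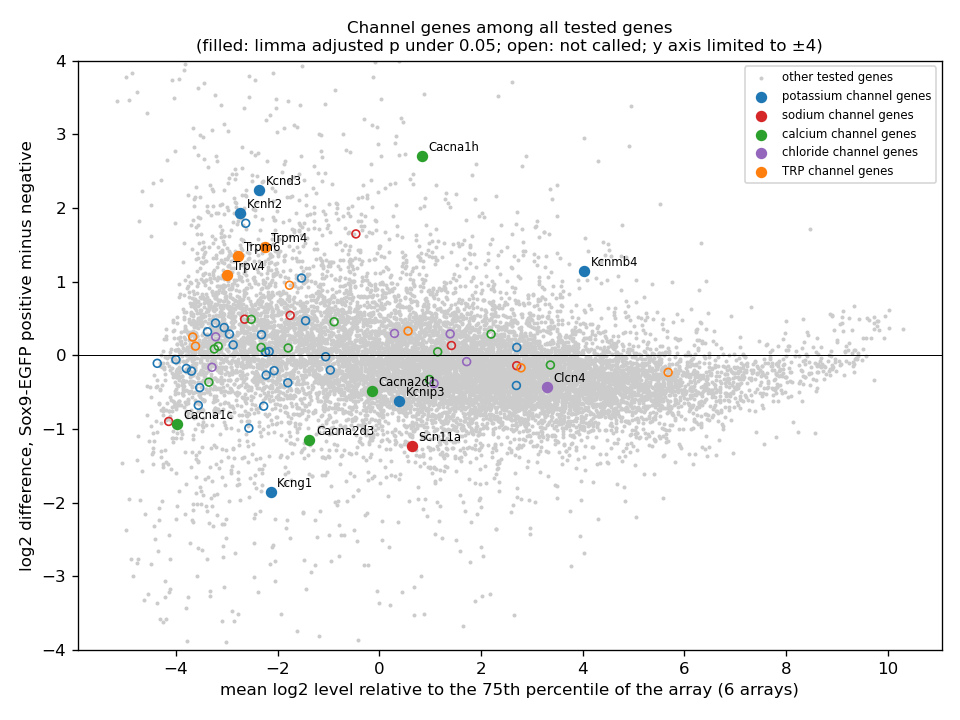
Log2 difference between Sox9-EGFP positive and negative cells (y axis) against the mean log2 level over the 6 arrays (x axis, relative to the 75th percentile of each array) for all tested genes in grey and 69 channel genes in colour by family, filled where limma's adjusted p was under 0.05. Most channel genes lie at the low-signal left side, where Kcnd3, Kcnh2, Trpm4, Trpm6 and Trpv4 are also found, while Cacna1h and Kcnmb4 lie further right.

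**Figure D2:**
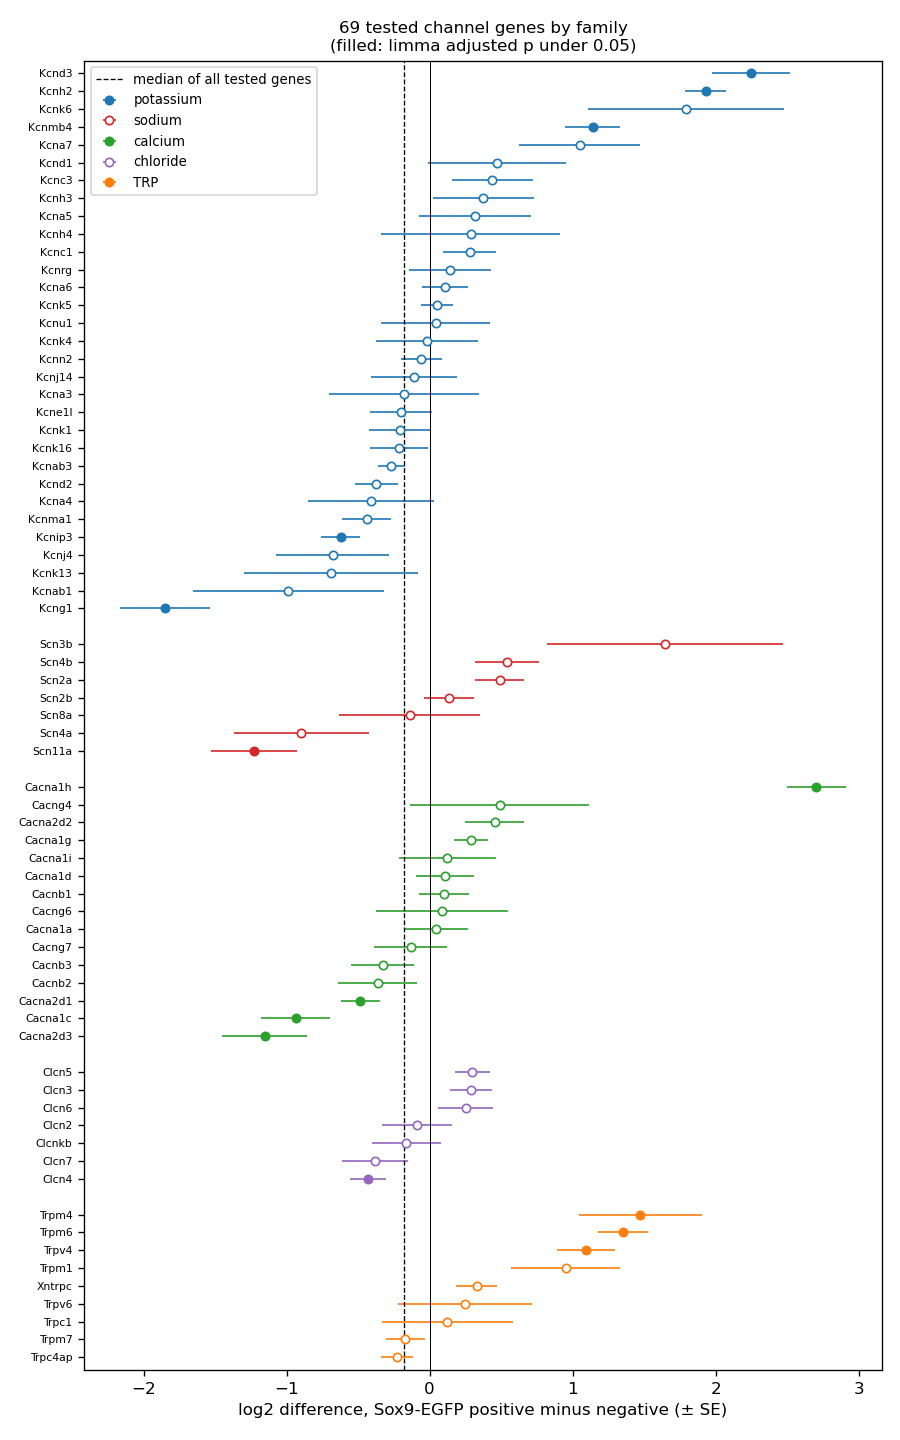
Log2 difference (x axis, Sox9-EGFP positive minus negative, bars are SE, n = 3 per group) of 69 of the 73 tested channel genes, grouped by family and sorted within it, with filled points for genes called by limma. The dashed line at −0.18 is the median of all tested genes, and 55 of the 69 points are open.

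The promoter windows of 3 of the higher genes show whether sequence of the kind bound by SOX proteins stands in front of them. RefSeq windows on the GRCm38.p6 build, running from 250 bases before each gene's start to 50 bases after it, were found for 53 of the 73 tested channel genes, but not for Cacna1h, Trpm4 and Kcng1. Each was searched on both strands for AACAATG and AACAAAG, 2 forms of the SOX core, which differ at 1 letter and do not overlap here. Of 32851 windows of that length, 3.78% held the first and 5.85% the second. The 250 bases before the start are printed 5′ to 3′ on the gene's strand, with a match in capitals. Kcnd3 is at chr3:105451640-105451889 (+ strand), Trpm6 at chr19:18749480-18749729 (+ strand) and Kcnmb4 at chr10:116473524-116473773 (− strand).
Kcnd3: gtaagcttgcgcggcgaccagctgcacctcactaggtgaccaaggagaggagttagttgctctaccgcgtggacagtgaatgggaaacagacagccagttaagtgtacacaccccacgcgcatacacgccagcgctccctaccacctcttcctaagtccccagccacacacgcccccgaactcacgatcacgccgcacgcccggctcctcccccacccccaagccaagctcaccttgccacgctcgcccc
Trpm6: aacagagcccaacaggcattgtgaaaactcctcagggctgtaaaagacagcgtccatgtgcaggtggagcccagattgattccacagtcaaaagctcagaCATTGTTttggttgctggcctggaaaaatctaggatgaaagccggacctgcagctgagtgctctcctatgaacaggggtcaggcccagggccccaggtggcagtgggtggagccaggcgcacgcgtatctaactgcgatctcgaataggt
Kcnmb4: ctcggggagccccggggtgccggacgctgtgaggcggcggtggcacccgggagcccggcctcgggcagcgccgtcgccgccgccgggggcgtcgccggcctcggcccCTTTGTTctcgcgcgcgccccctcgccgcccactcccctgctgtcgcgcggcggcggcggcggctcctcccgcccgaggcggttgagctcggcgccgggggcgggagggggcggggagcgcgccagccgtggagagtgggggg
The Trpm6 window held AACAATG on the opposite strand, printed as CATTGTT and beginning 150 bases before the start. The Kcnmb4 window held AACAAAG on the opposite strand, printed as CTTTGTT and beginning 143 bases before the start. No match of either motif stood in the Kcnd3 window. Among the 5 higher genes with a window, 1 held each motif, and none of the 6 lower genes did in 11 windows. A match describes the letters and is no measurement of binding.

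Potassium channels, voltage-gated and other, form pores from subunits of several families. Of the 94 potassium channel genes, 33 were tested, of which 4 were higher and 2 lower. Kcnd3 encodes Kv4.3, a pore of the fast transient A-type current. It gave −1.81, −1.18 and −0.75 on the positive arrays, against −3.54, −3.62 and −3.31 on the negative arrays. No positive array came near the negative ones, and the difference of 2.25 ± 0.27 (SE, n = 3 per group) was 4.75-fold, with a limma adjusted p of 0.00251. Its probe lies at chr3:105476854-105476913 of the mm9 build. The 2 other Kv4 genes did not follow it. Kcnd2 differed by −0.37 ± 0.15 and Kcnd1 by 0.47 ± 0.48, and neither was called.

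Kcnh2 encodes the ERG pore, known in the heart for the rapid delayed rectifier current. Its levels were −1.74, −1.66 and −1.93 in positive cells and −3.53, −3.91 and −3.68 in negative cells. The arrays of each group lay close together and the groups were far apart, a difference of 1.93 ± 0.14 (3.82-fold; limma adjusted p = 0.000507; probe at chr5:23825407-23825466). Kcnh3 and Kcnh4, of the same ether-a-go-go branch, differed by 0.38 ± 0.35 and 0.29 ± 0.63 and were not called.

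In the opposite direction, Kcng1 showed the largest drop of any tested channel gene under the 75th percentile scaling. It encodes Kv6.1, a subunit that forms no channel alone and modifies other Kv pores. Its levels were −2.57, −3.59 and −3.03 in positive cells, against −1.20, −1.63 and −0.81 in negative cells, and on positive replicate 1 it was not well above background. The difference of −1.85 ± 0.31 (3.60-fold lower; limma adjusted p = 0.00704; probe at chr2:168087201-168087260) lay outside the spread of both groups.

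The other Kv pores were not called. The brightest Kv probes were those of Kcna4 and Kcna6, both Shaker-type pores. Kcna6 gave 2.44, 2.93 and 2.91 on the positive arrays and 2.69, 2.68 and 2.59 on the negative arrays, so the groups overlapped, with a difference of 0.11 ± 0.16. Kcna4 gave 3.57, 1.86 and 2.05 on the positive arrays, against 2.89, 3.0 and 2.82 on the negative arrays. Positive replicate 1 was above every negative array and the other positive arrays were below them. Without that array the difference was −0.95, with a limma adjusted p of 0.00384, and with it −0.41 ± 0.44. Kcna7 had no overlap between the groups but was not called, at 1.05 ± 0.42, and its second, dimmer probe gave −1.13.

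Among the proteins that accompany the pores, Kcnmb4 was higher and Kcnip3 lower. Kcnmb4 encodes the beta4 subunit of the large-conductance BK channel and gave 4.21, 4.69 and 4.92 on the positive arrays, against 3.52, 3.41 and 3.46 on the negative arrays. Every positive array was above every negative array, a difference of 1.14 ± 0.19 (2.21-fold; limma adjusted p = 0.00677; probe at chr10:115854977-115855036). A second, dimmer Kcnmb4 probe gave 1.12 ± 0.49, near the same size with a larger error. Kcnma1, the pore of the BK channel, gave −3.48, −3.98 and −3.79 on the positive arrays and −3.19, −3.53 and −3.21 on the negative arrays. Its groups overlapped and it was not called at −0.44 ± 0.17.

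Kcnip3 encodes a calcium-binding protein that attaches to Kv4 pores and is also known as DREAM or calsenilin. It gave −0.14, 0.24 and 0.15 on the positive arrays and 0.69, 0.61 and 0.81 on the negative arrays. The groups were separate, at −0.62 ± 0.14 (limma adjusted p = 0.0169), in the direction opposite to Kcnd3. Leaving out negative replicate 1 ended the call, with an adjusted p of 0.0625, and so did leaving out negative replicate 3 (0.0679) or taking the percentile over detected probes (−0.35, adjusted p = 0.122). The beta subunit gene Kcnab1 differed by −0.99 ± 0.67, with positive replicate 1 at −1.56 and the others at −4.30 and −3.32, and without that array the difference was −1.74 (limma adjusted p = 0.0152). For Kcne1l, the brighter probe gave −0.20 ± 0.22 and the dimmer one 0.64 ± 0.16, which was called when limma was run over all probes (adjusted p = 0.0406).

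No inward rectifier, two-pore-domain or calcium-activated potassium pore was called. Kcnk6, a two-pore-domain gene, had the largest difference among uncalled channel genes at 1.79 ± 0.68 (limma adjusted p = 0.0878). Its positive arrays were close together at −1.94, −1.71 and −1.54, while the negative arrays gave −4.72, −1.89 and −3.95. It passed the background filter through the positive arrays only, and negative replicate 1 was not well above background. Negative replicate 2 stood with the positive arrays. Without that array, picked after its value was seen, the difference was 2.61 with a limma adjusted p of 0.00543. The 5 other two-pore-domain genes tested ran from −0.69 ± 0.61 for Kcnk13 to 0.05 ± 0.11 for Kcnk5, and Kcnk2 was not above background on any array.

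Kcnj2 and Kcnj16, which encode inward rectifiers, are on chromosome 11 with Sox9. The Kcnj2 probe lies 1713 kb from the Sox9 probe in mm9, and the RefSeq table lists 1 protein-coding gene between these 2 genes. Kcnj2 was well above background on 2 positive arrays and 1 negative array, so it missed the limit for testing. Its signals were −2.82, −2.97 and −2.54 in positive cells, against −3.31, −4.54 and −4.29 in negative cells. The groups did not overlap, and no test is given for a probe this near background. Kcnj16 was not above background on any array.

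Calcium channels held the largest difference of all tested channel genes, and 15 of their 26 genes were tested, of which 1 was higher and 3 lower. Cacna1h encodes Cav3.2, a T-type pore that opens at negative potentials. It gave 2.12, 2.15 and 2.30 on the positive arrays, against −0.59, −0.10 and −0.86 on the negative arrays. The 3 positive arrays lay close together and far above the rest, a difference of 2.71 ± 0.20 (6.52-fold; limma adjusted p = 0.000545). That probe is at chr17:25511235-25511294. A second, dimmer probe for the gene gave 0.93 ± 0.21, well above background on 2 of the 3 positive arrays, so the direction was shared and the size was not.

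The other T-type pores differed less. Cacna1g, which encodes Cav3.1, gave 2.19, 2.40 and 2.44 on the positive arrays and 1.97, 2.13 and 2.06 on the negative arrays. Its groups did not overlap, but the difference was 0.29 ± 0.12 and was not called (limma adjusted p = 0.108). It was called under the other 5 scalings, at up to 0.56. Cacna1i, which encodes Cav3.3, differed by 0.12 ± 0.34.

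Cacna1c, the Cav1.2 L-type pore named above for its role in Timothy syndrome, was lower in positive cells. Its signals were close to background, at −4.91, −4.20 and −4.23 on the positive arrays and −3.36, −3.35 and −3.81 on the negative arrays, and positive replicate 1 was not well above background. The groups did not overlap and the difference was −0.94 ± 0.24 (limma adjusted p = 0.0264; probe at chr6:118544079-118544138). In the authors' values it was −0.33. The call was lost under 3 of the 5 other scalings. Of the fits that left out 1 array, those lacking positive replicate 3, negative replicate 1 and negative replicate 2 also lost it, with adjusted p of 0.0509, 0.0907 and 0.0746. Cacna1d, the other L-type pore tested, differed by 0.11 ± 0.21, and Cacna1a, the P/Q-type pore, by 0.05 ± 0.22.

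The alpha2delta subunits, which carry the pores to the cell surface, were lower for 2 of the 3 genes tested. Cacna2d3 gave −2.61, −1.79 and −1.46 on the positive arrays, against −0.98, −0.71 and −0.71 on the negative arrays. All positive arrays were below the negative ones, by −1.15 ± 0.29 (2.23-fold lower; limma adjusted p = 0.0264; probe at chr14:29718399-29718458), and positive replicate 1 was not well above background. Without positive replicate 2 or any 1 negative array the adjusted p was 0.0507 to 0.0917, and with the percentile over detected probes the difference was −0.88 (0.0936).

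Cacna2d1 gave −0.21, −0.63 and −0.34 on the positive arrays and 0.04, 0.10 and 0.13 on the negative arrays. The groups were separate at −0.48 ± 0.14 (limma adjusted p = 0.0371), and its second probe gave −0.80 ± 0.18. It was −0.21 with the percentile over detected probes and −0.33 with median centring, without a call (limma adjusted p = 0.294 and 0.142). The call held only without positive replicate 1, among the fits that left out 1 array, with an adjusted p of 0.0832 to 0.116 in the others. Cacna2d2 differed the other way without a call, at 0.46 ± 0.21. The beta subunit genes Cacnb1, Cacnb2 and Cacnb3 and the gamma subunit genes Cacng4, Cacng6 and Cacng7 ran from −0.36 to 0.49, none called. Cacng7, the brightest of these probes, gave 3.46, 3.45 and 2.99 on the positive arrays, against 3.08, 3.93 and 3.29 on the negative arrays, and its groups overlapped.

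Sodium channels had 8 of 14 genes tested, of which 1 was lower. Scn11a encodes Nav1.9, a pore known from sensory neurons of the dorsal root ganglia. It gave −0.49, 0.22 and 0.36 on the positive arrays and 1.26, 0.84 and 1.68 on the negative arrays. There was no overlap, and the difference of −1.23 ± 0.30 was 2.34-fold lower (limma adjusted p = 0.0227; probe at chr9:119662887-119662946). Without negative replicate 1 the adjusted p was 0.0713, and without negative replicate 3 it was 0.0776. With the percentile over detected probes it was 0.0657, at −0.96.

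The remaining sodium channel genes were not called. Scn8a, which encodes the neuronal pore Nav1.6, gave 3.83, 1.91 and 2.17 on the positive arrays, against 2.74, 2.95 and 2.63 on the negative arrays. As with Kcna4, positive replicate 1 was the highest of the 6 arrays and the other positive arrays were the lowest. Its difference was −0.14 ± 0.49, changed sign under all 5 other scalings, and was −0.74 without that array (limma adjusted p = 0.0145). Scn3b, a beta subunit gene, had a fitted difference of 1.65 ± 0.82, from 0.10, 1.91 and −0.92 on the positive arrays and −1.63, −0.09 and −2.13 on the negative arrays. Its arrays overlapped within a wide spread. Scn2b, another beta subunit gene, differed by 0.13 ± 0.17, and Scn2a, which had no overlap, by 0.49 ± 0.17 (adjusted p = 0.0693). Scn4a, the pore of skeletal muscle, was near background and differed by −0.90 ± 0.47.

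Chloride channels and exchangers of the ClC family had 7 of 9 genes tested. Clcn4, named Clcn4-2 in the files, encodes an endosomal chloride and proton exchanger and was the 1 gene called. It gave 2.88, 3.15 and 3.22 on the positive arrays, against 3.49, 3.48 and 3.57 on the negative arrays. The groups did not overlap, but the difference was small at −0.43 ± 0.13 (1.35-fold lower; limma adjusted p = 0.0417), or −0.25 relative to the median of all genes. It was not called under any of the 5 other scalings, where it lay between −0.13 and −0.28, or without any 1 array (adjusted p 0.0566 to 0.130). Clcn5 and Clcn3, also of the endosomal branch, differed by 0.30 ± 0.12 and 0.29 ± 0.15, and Clcn2, a plasma membrane channel, by −0.09 ± 0.24. Clcn5 and Clcn3 were called higher with the percentile over detected probes (limma adjusted p = 0.0102 and 0.0464) and median centring (0.0347 and 0.0448). They were not called with quantile normalization, normexp or the authors' values.

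TRP channels had 10 of 22 genes tested, of which 3 were higher and 0 were lower. Trpm6 encodes a magnesium-permeable channel fused to a kinase, known in kidney and gut. It gave −1.78, −2.33 and −2.22 on the positive arrays, against −3.52, −3.31 and −3.55 on the negative arrays. All positive arrays were well clear of the negative ones, a difference of 1.35 ± 0.17 (2.55-fold; limma adjusted p = 0.00295; probe at chr19:18966941-18967000). Trpm7, its close relative expressed in most tissues, was bright and overlapped between groups, with 2.94, 2.63 and 2.54 on the positive arrays and 2.84, 2.83 and 2.95 on the negative arrays.

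Trpv4 encodes a calcium channel opened by osmotic swelling and known for its function in cartilage cells. It gave −2.53, −2.46 and −2.38 on the positive arrays and −3.87, −3.12 and −3.66 on the negative arrays. The positive arrays were tightly grouped and above all negative ones, at 1.09 ± 0.20 (2.13-fold; limma adjusted p = 0.00946; probe at chr5:115072208-115072267). In the authors' values the difference was 0.28 and after normexp 0.29, without a call (limma adjusted p = 0.116 and 0.103). Trpv6 differed by 0.25 ± 0.47.

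Trpm4, a cation channel opened by internal calcium, gave −2.38, −1.28 and −0.90 on the positive arrays and −2.47, −3.46 and −3.04 on the negative arrays. Positive replicate 1 was just above negative replicate 1, so the groups were separate by a narrow margin. The difference was 1.47 ± 0.43 (2.78-fold; limma adjusted p = 0.0400). Without positive replicate 1 the adjusted p was 0.00691, and without any other array it was 0.0536 to 0.119. Trpm1 was not called at 0.95 ± 0.38. The canonical TRP gene Trpc1 differed by 0.12 ± 0.46 and the listed Xntrpc by 0.33 ± 0.14, neither called. Trpc4ap, the brightest channel-set probe, had no overlap but a difference of −0.23 ± 0.11, close to the median of all genes.

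**Figure D3:**
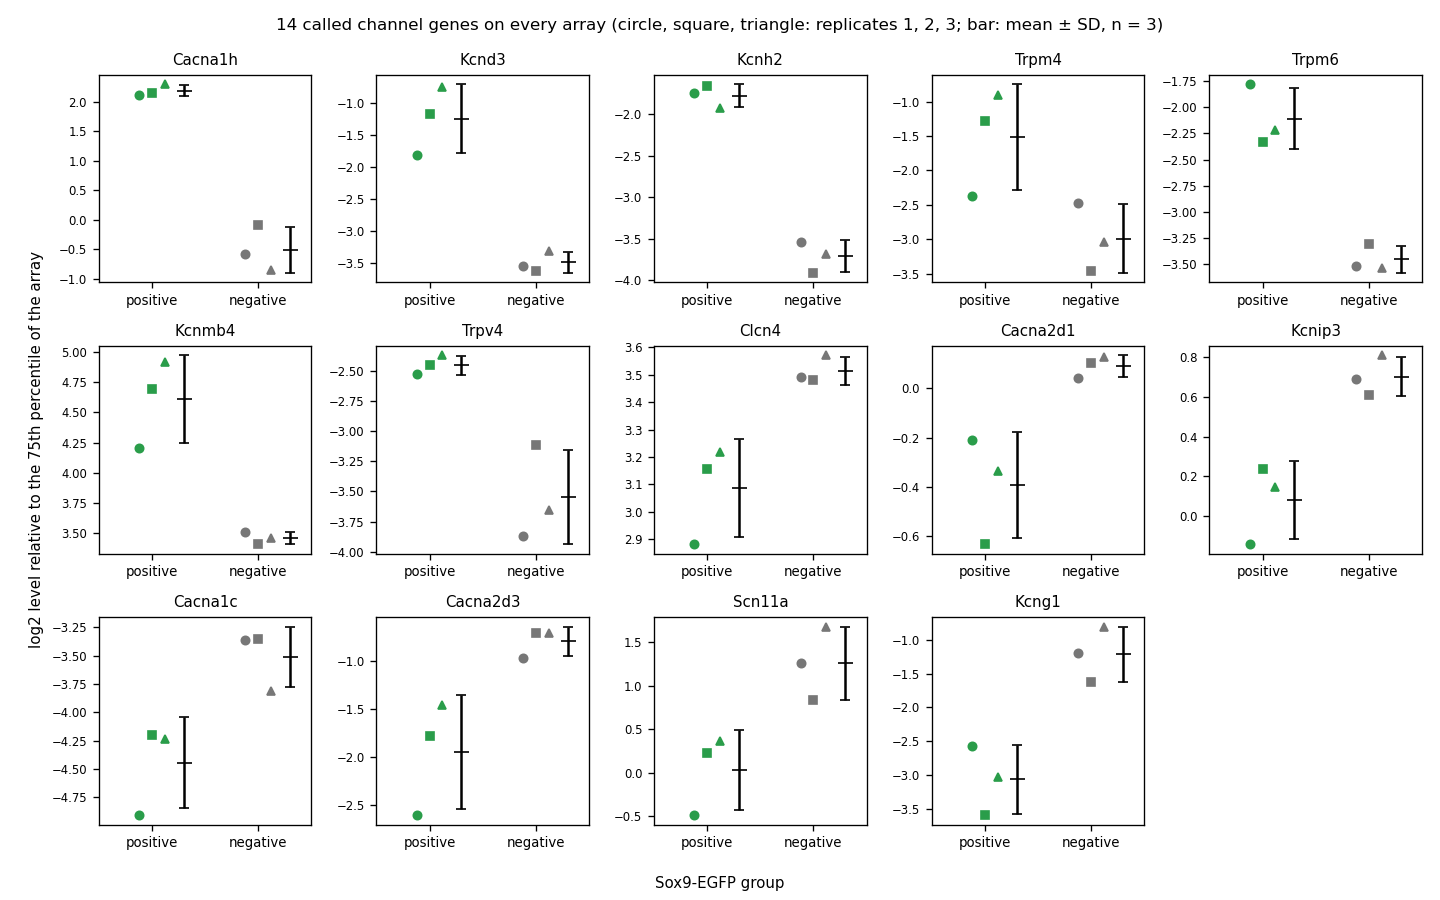
Log2 level relative to the array's 75th percentile (y axes, not starting at 0 and on a scale of their own in each panel) of 14 called channel genes on each array, with Sox9-EGFP positive arrays left in green and negative arrays right in grey, and mean ± SD (n = 3) as bars. In every panel the 3 positive arrays lie on one side of the 3 negative arrays, with the narrowest gap for Trpm4.

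Differences of several dim channel genes were smaller in the authors' values, whose background correction is not given. Which step of the processing made them smaller was not tested. In the authors' series matrix values, log2 differences were 0.94 for Kcnd3, 0.73 for Kcnh2, 0.51 for Trpm6, 0.69 for Trpm4 and −1.10 for Kcng1, all over 1.5 times smaller than above. Kcnd3, Kcnh2, Trpm6 and Kcng1 were still called there, with limma adjusted p from 0.00276 to 0.0147, and Trpm4 was not (0.0952). Cacna1h and Kcnmb4, whose signals were higher, gave 2.35 and 1.42.

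The headers place the arrays on 3 slides, each with 1 positive and 1 negative array. Within slides 1, 2 and 3 the difference was 2.22, 3.01 and 2.89 for Cacna1h, 1.81, 2.13 and 2.79 for Kcnd3 and 2.17, 2.02 and 1.60 for Kcnh2. For Kcng1 it was −0.94, −2.78 and −1.83. All 15 called genes had 1 sign on all slides, which follows from groups that do not overlap. With slide as a block, no call was lost and 4 genes were added. These were Kcna7 (1.05, limma adjusted p = 0.00933), Kcnk13 (−0.69, adjusted p = 0.0129), Scn2a (0.49, adjusted p = 0.0223) and Trpm1 (0.95, adjusted p = 0.0390), for 11 higher and 8 lower genes in all.

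**Figure D4:**
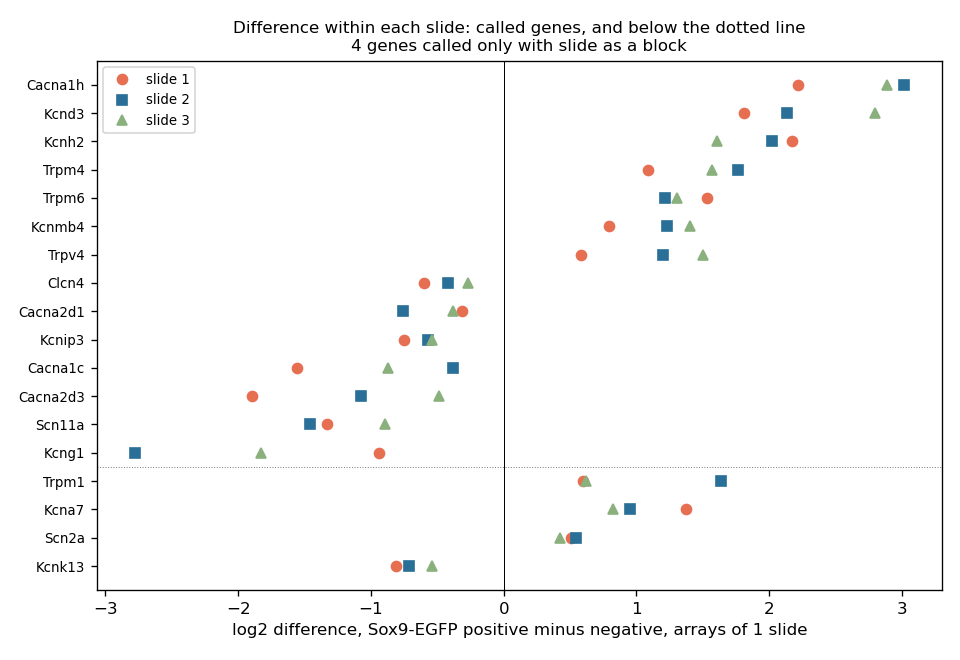
Log2 difference (x axis, Sox9-EGFP positive minus negative array of the same slide) for 14 called channel genes, with 1 point per slide and no error bar. Under the dotted line are the 4 genes that slide as a block added to the calls. Of these, Kcna7, Scn2a and Trpm1 were also called with array quality weights. For each gene all 3 points lie on the same side of 0, and the points of Kcng1 and Cacna2d3 are spread widest among the lower genes.

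Slide 1 held positive replicate 1 and negative replicate 2, and both were the highest of their group for 18 of the 73 channel genes (24.7%, beside 15.4% of all genes). Kcna4, Kcna7, Kcnd1, Kcnk4, Scn8a and Trpm1 were among them. The same count was 12 for slide 3 (16.4%, beside 10.4% of all genes) and 5 for slide 2 (6.85%, beside 18.2%). Slide 1 was thus not alone in a share above that of all genes. Of the 7 neuron markers tested, Snap25 and Elavl4 were highest in their group on both arrays of slide 1 and the other 5 were not. Snap25 was the brightest of them, at 4.21, 2.73 and 2.11 on the positive arrays and 1.35, 2.43 and 1.19 on the negative arrays. Summed in multiples of the array's 75th percentile, the 7 markers gave 21.7 on positive replicate 1 and 8.28 to 9.93 on the other positive arrays. On the negative arrays the sum was 4.81 to 7.92, and Isl1 and Syt1 were not above background. Snap25 made up most of the sum on positive replicate 1. Among the positive arrays, that one gave the highest level of Tubb3 and Elavl4 but the lowest of Stmn2, Nefl and Nefm. Stmn2 alone was called by limma, higher in positive cells. Their part in the channel values was not tested.

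Markers of other cells the sort could hold also differed. Muscle precursor markers were lower in positive cells for 7 of 8 tested, summing to 0.556 to 0.837 there, against 2.33 to 5.93 in negative cells, with Pax7 and Myf5 not above background. Only Tnnt1 was well above background on all 3 positive arrays, so the others passed the filter through the negative arrays alone. Pax3, Myod1, Myog and Chrna1 were well above background on no positive array, so the size of their differences is uncertain. Cacna1c and Cacna2d1, called lower in positive cells, are also known from muscle. Scn4a, the skeletal muscle pore, differed by −0.90 ± 0.47 without a call. It was called lower with quantile normalization (limma adjusted p = 0.0467) and normexp (0.0495). Under the percentile over detected probes, median centring and the authors' values it was not called (0.374, 0.301 and 0.0511). Ectoderm markers were called higher for 3 of 6 and lower for 1, summing to 22.4 to 36.8 in positive cells and 9.48 to 11.8 in negative cells, with Krt5, Krt15, Cdh1 and Cldn6 not above background. Trp63 and Krt18 made up most of these sums, Grhl3 was the gene called lower, and Krt14 and Epcam were not called. Endothelial markers were lower for 1 of 4, Schwann and neural crest markers higher for 1 and lower for 1 of 4. None of the 4 erythroid and 2 macrophage markers was called by limma, although both lists were highest on negative replicate 2, where the erythroid markers summed to 42.9. Limb mesenchyme markers, with 2 of 9 higher and 4 lower, summed to 176 to 191 in positive cells and 312 to 334 in negative cells. Cartilage markers, with 7 of 9 higher, summed to 309 to 341 in positive cells and 66.7 to 91.6 in negative cells. The part of these cells in the channel values was not tested.

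Of the 91 channel genes that did not pass the background filter, 52 had no probe above background on any array, 29 reached at most 1 array of a group and 10 reached 2. Of the 73 that were tested, 72 passed through the negative arrays and 52 were above background on all positive arrays. On positive replicate 1, 21 were not above background. Among the genes just outside were Kcnip2, Kcnj13, Kcnj2, Kcnn4, Kcnt1, Kcnt2, Scn1a, Scn3a and Trpv2. Kcnj13 gave −2.61, −2.90 and −1.89 in positive cells and −4.75, −4.46 and −3.71 in negative cells, without overlap. Trpv2 gave −4.78, −5.46 and −3.86 in positive cells and −4.11, −1.59 and −4.38 in negative cells, with negative replicate 2 apart from the rest. Just inside the filter, Kcnj14 and Scn4a were above background on 1 positive and 3 negative arrays.

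Of 18 channel genes with more than 1 tested probe, 13 had probes with differences of 1 sign. The 5 with opposite signs were Kcna7, Kcne1l, Scn8a, Cacnb2 and Clcn6. None of these was called through its brighter probe.

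Genes that handle the ions the channels conduct were described by lists written with earlier results of these data known. In the list of calcium entry, store release and pumps, 18 of 25 genes were tested, 1 was higher and 2 lower, and the median difference was 0.01. The store pump Atp2a2 was lower by −0.82 ± 0.16, the store-operated pore gene Orai1 by −0.69 ± 0.16, and the sodium and calcium exchanger gene Slc8a2 was higher by 0.72 ± 0.17 (limma adjusted p 0.0117 to 0.0191). With the percentile over detected probes Orai1 was at −0.42 and not called (adjusted p = 0.116). In the list of calmodulin, calmodulin kinases, calcineurin and NFAT, 22 of 24 were tested, 4 were higher and 4 lower, with a median of −0.15. The transcription factor gene Nfatc2, activated by calcineurin, was higher by 2.88 ± 0.19, the calcineurin regulator gene Rcan2 by 2.13 ± 0.21, and the kinase gene Camk1d was lower by −2.59 ± 0.23 (limma adjusted p 0.000387 to 0.00119). Rcan2 was well above background on 1 negative array and Camk1d on 2 positive arrays, and their differences were 0.57 and −1.11 in the authors' values, beside 2.46 for Nfatc2.

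The sodium pump and cation-chloride cotransporter list had all 15 genes tested, 5 higher and 0 lower, with a median of 0.03. Atp1b2, a beta subunit of the pump, was higher by 1.91 ± 0.21 and the cotransporter gene Slc12a5 by 1.24 ± 0.20 (limma adjusted p = 0.00190 and 0.00626), and by 1.22 and 0.80 in the authors' values. In the gap junction and pannexin list, 7 of 13 were tested, 1 higher and 3 lower, with a median of −0.16. Gjb6 was not well above background on any negative array and was at least 3.91-fold higher in positive cells (limma adjusted p = 0.000468), taking the higher of each negative array's own signal and its lowest signal well above background. Gjb2 was lower by −1.47 ± 0.21 and Panx1 by −0.54 ± 0.11 (limma adjusted p = 0.00384 and 0.0135). Panx1 was not called in the authors' values, at −0.22 (adjusted p = 0.163).

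Of 39 other ion channel genes, 27 were tested, 6 higher and 4 lower, with a median of −0.01. The stretch-activated channel gene Piezo2 gave −1.71, −1.87 and −0.81 in positive cells and −3.48, −3.51 and −3.32 in negative cells, a difference of 1.97 ± 0.28, or 0.89 in the authors' values. Pkd2, which encodes polycystin 2, was higher by 0.75 ± 0.11, and Ttyh2, of the tweety family, was lower by −1.10 ± 0.12 (limma adjusted p 0.00170 to 0.00440 for the 3 genes).

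Across 22 other settings of scaling, filters, variance model and left-out arrays, the calls of Cacna1h, Kcnd3, Kcnh2, Kcnmb4 and Trpm6 were kept in all 22. Kcng1 was kept in all 21 in which it could be tested. Like Cacna1c and Cacna2d3, it dropped out where a probe had to be above background on all 6 arrays. Trpv4 was kept in 20 of 22, Scn11a in 17, Kcnip3 in 14, and Cacna2d3 in 14 of 21. Fewest were kept for Cacna1c (10 of 21), Trpm4 and Cacna2d1 (9 of 22 each) and Clcn4 (5 of 22).

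**Figure D5:**
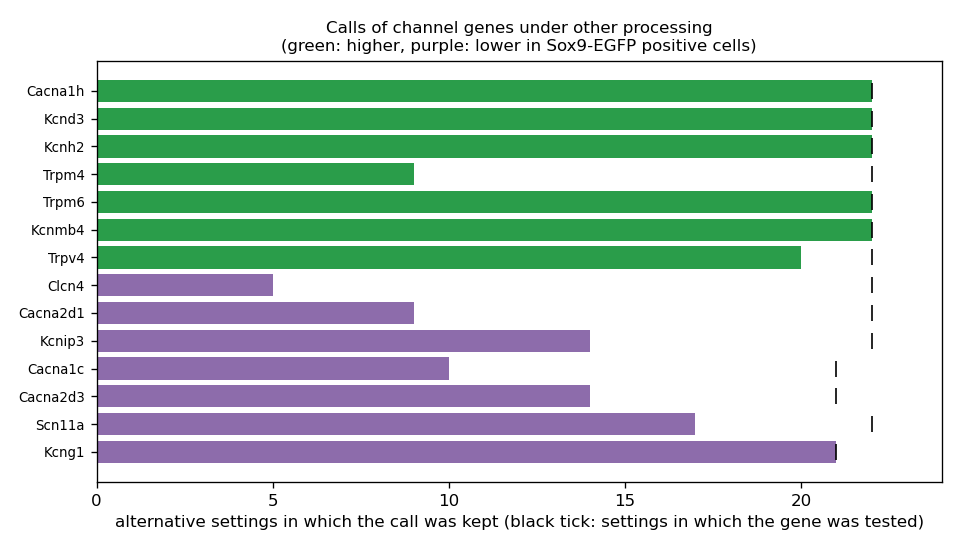
Number of alternative settings in which each of 14 called channel genes was called again in the same direction (x axis), with genes higher in Sox9-EGFP positive cells in green and lower ones in purple, and a black tick at the number of settings in which the gene was tested. Bars reach the tick for Cacna1h, Kcnd3, Kcnh2, Kcnmb4, Trpm6 and Kcng1, and the shortest bar is that of Clcn4.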

How the data were processed

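RNA of 3 Sox9-EGFP positive and 3 Sox9-EGFP negative samples was measured on 1-colour Agilent arrays of 62976 spots. Per the file headers, the authors made the deposited intensity values with Feature Extraction 10.7.3.1, which corrects background within an array, and probe positions are of mm9. The deposited series matrix holds log2 values of the authors with a median of 6.47 on each array. The sources used here do not give their background correction.

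Processed intensities were log2-transformed, and the 75th percentile over 59305 non-control spots was subtracted, with replicate spots averaged and outlier spots dropped. Probes were named through RefSeq accessions or symbols and kept if well above background on all 3 arrays of a group. The brightest probe stood for each of 13197 genes. The 2 groups were tested in limma 3.58.1 (R 4.3.3) with Benjamini-Hochberg adjustment over all genes at 0.05, and the pipeline was tested on simulated data. Correlations among the positive arrays ran from 0.971 to 0.993, among the negative arrays from 0.987 to 0.995, and across groups from 0.939 to 0.963.

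Channel genes past the threshold with at least 2-fold differences are named with every array's value, other called ones with difference and SE, then the 2 brightest uncalled genes of each family, Kcnj2, Kcnj16, Kcnk2 and Trpm7, and up to 3 called genes per companion list by smallest p. Other named genes were chosen after their values were seen. Members and lists were chosen with earlier results of these data known. Slide came from the headers. Deviations from the group means correlated at 0.463, 0.358 and 0.229 for arrays of the same slide. No protein sequences were used here, and whether probes lie in exons or UTRs was not determined, since the gene table is of another build than mm9. A few genes are not reported here and are left out of the figures.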

Additional observations from a re-analysis of the deposited data

How the results depend on the processing

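Alternatives were other scalings, background corrections, filters, probe rules, variance models, blocks and thresholds, and leaving out each array. With the percentile over probes above background on all 6 arrays, 14 channel genes were higher and 1 lower. Centring on the median gave 4 lower. Array quality weights gave 16 higher and 12 lower. No background filter left 1 lower, the filter on all 6 arrays 4, a threshold of 0.01 1 and a 2-fold limit 3. Leaving out each array in turn gave 7 to 14 higher and 1 to 11 lower, the most of both without positive replicate 1. Over all genes, 2656 were called with no filter, 2109 at 0.01, 1454 at 2-fold, and 2485 to 5176 with an array left out. All other counts of higher genes lay within 1.5 times of 8.

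The replicate number was also fitted as a block, giving 7 higher and 4 lower channel genes and 2157 genes in all. Same-numbered arrays correlated at −0.274, −0.418 and 0.157 in their deviations. Deviations from a mean of 3 arrays depend on each other, and no same-numbered arrays shared a slide. These values therefore cannot tell whether the numbers pair the samples.

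Among the named channel genes, signs turned only for uncalled ones. Scn8a became 0.13, 0.010, 0.11, 0.14 and 0.12 under the detected percentile, the median, quantile, normexp and the authors' values, and 0.15 with the mean of probes. In the same order, Cacng7 became 0.14, 0.019, 0.16, 0.19 and 0.17, and 0.068 with array weights. Clcn2 became 0.18, 0.065, 0.12, 0.095 and 0.083, and 0.15 with array weights. Trpc4ap (0.039, 0.14, 0.14 and 0.097) and Trpm7 (0.10, 0.11, 0.12 and 0.10) turned under all but median centring. Kcna7 became −0.039 and Kcne1l 0.22 with the mean of probes, and Kcne1l 0.070 under the detected percentile. With an array left out, values ran from −0.74 to 0.22 for Scn8a, −0.31 to 0.12 for Cacng7, −0.22 to 0.19 for Clcn2 and −0.31 to 0.018 for Kcne1l. The cause was not tested. Of the 73 channel genes tested, 51 were above background on all 6 arrays.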
